A study of Mus musculus with 8 samples.

Results

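The miRNAs described here are miR-146a, miR-146b, miR-155 and miR-147, microRNAs known to be induced by inflammatory signalling through Toll-like receptors and the transcription factor NF-kB. They were chosen by their names in the scanner files (mmu-miR-146a, mmu-miR-146b, mmu-miR-155 and mmu-miR-147) and make up 4 of the 611 mouse miRNAs on the array, of which 3 were bright enough to test. The animals were mice of the outbred ICR strain, in which one ureter had been tied off for 7 days (unilateral ureteral obstruction, UUO). The control group held 4 contralateral kidneys, labelled control, whose own ureter was open. The UUO group held 4 kidneys with the tied ureter. Both groups thus came from operated mice, and no sham-operated kidney was analysed here. Age and sex are not given in the sources used here.

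A miRNA is a short RNA that pairs with messenger RNAs, mainly through its seed (bases 2 to 8), and lowers their translation and stability. miR-146a and miR-146b are NF-kB targets known to repress Irak1 and Traf6, proteins that carry the Toll-like receptor signal, and so form a negative feedback loop. miR-155 is made from the non-coding RNA Mir155hg, formerly Bic, in activated macrophages and lymphocytes, and is known to repress Socs1 and the phosphatase gene Inpp5d. miR-147 is known to be induced in macrophages by Toll-like receptor ligands and to dampen their cytokine output. In a kidney with a blocked ureter, urine pressure injures the tubules, and macrophages and lymphocytes enter the interstitium.

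The mature strands the array names stand for are printed because the probes of 2 members read nearly the same RNA. The RefSeq table (GRCm38.p6) held the mature strand for 3 of the 4 members. Capitals mark the seed.
miR-146a-5p: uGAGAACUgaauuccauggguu
miR-146b-5p: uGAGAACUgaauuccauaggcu
miR-155-5p: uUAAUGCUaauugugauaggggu
miR-146a-5p lies at chr11:43374435-43374456 on the minus strand, miR-146b-5p at chr19:46342790-46342811 on the plus strand and miR-155-5p at chr16:84714143-84714165 on the plus strand. The miR-155 precursor lies inside the gene Mir155hg, that of miR-146b inside the predicted gene Gm36493 and that of miR-147 inside the protein-coding gene AA467197, also called Nmes1. No other gene in the RefSeq table spanned the miR-146a precursor. miR-146a and miR-146b share the seed GAGAACU, which no other mature mouse miRNA in the table carries, and miR-155 was the only one with the seed UAAUGCU. Over their 22 bases miR-146a and miR-146b are identical at 20, and the differences are G18A and U21C, with miR-146a first and positions counted from the 5′ end. How far the probes of one bind the other was not tested.

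The miR-146b precursor is shown whole because the array measured both of its strands. Capitals mark the miR-146b-5p strand, and the strand named miR-146b* on the array is the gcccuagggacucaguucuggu further along the same hairpin.
Mir146b hairpin: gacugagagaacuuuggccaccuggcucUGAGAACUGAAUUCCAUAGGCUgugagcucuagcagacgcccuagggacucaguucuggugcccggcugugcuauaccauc

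Array signal differed before any scaling. The 75th percentile of probe signal lay between 417 and 582 on the contralateral arrays and between 514 and 1595 on the obstructed arrays, and 228 to 240 and 243 to 310 miRNAs were above background. Signals of each array were divided by that percentile, so that a scaled level is relative to the bright miRNAs of its own array. Obstructed kidney 2 was unlike the other 3 obstructed kidneys, with an array weight in limma of 0.114 against 0.659 to 2.44 for the others, and results are given with and without it. The labels place it in the UUO group, and whether that label is right or its ureter was fully blocked was not tested and cannot be told from the files. As a check of the tissue, 6 of 7 kidney tubule markers were detected on all 8 arrays, miR-215 was above background on none, and the brain, liver and pancreas markers miR-124, miR-122 and miR-217 were above background on none.

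On this scale miR-146b, miR-155 and miR-146a were higher in obstructed kidneys 1, 3 and 4 than in every contralateral kidney, by 8.05 to 9.29 times, 3.39 to 4.76 times and 1.70 to 2.07 times the contralateral mean. Obstructed kidney 2 showed none of this. With all 8 arrays none of the 3 passed the test, and with obstructed kidney 2 left out all 3 did. That kidney was singled out from these same arrays, so every p-value given without it is likely too small and is descriptive only. miR-147 was not detected in any kidney.

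miR-146b, the NF-kB-induced partner of miR-146a with the same seed, differed most. Its scaled level was 0.107, 0.0595, 0.104 and 0.0862 in contralateral kidneys 1 to 4. In obstructed kidneys 1 to 4 it was 0.808, 0.0461, 0.700 and 0.745. Obstructed kidneys 1, 3 and 4 were high and close together, and obstructed kidney 2 was lower than all contralateral kidneys, so that the groups overlapped. The mean log2 level was -3.52 ± 0.39 in contralateral and -1.42 ± 2.01 in obstructed kidneys (SD, n = 4 each). The log2 difference was 2.10 ± 0.90 (SE), or 4.29-fold, with a limma adjusted p of 0.130 after Benjamini-Hochberg adjustment over all 222 miRNAs tested. Without obstructed kidney 2 it was 3.11 ± 0.22, or 8.62-fold (n = 3 and 4), with a limma adjusted p of 0.000243. By size of difference miR-146b ranked at 1 among the 222 tested miRNAs, with and without that array.

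miR-155, the Mir155hg product of activated immune cells, had scaled levels of 0.111, 0.156, 0.139 and 0.0938 in contralateral kidneys 1 to 4. The obstructed kidneys 1 to 4 gave 0.466, 0.0852, 0.415 and 0.584. Again kidneys 1, 3 and 4 lay above all contralateral kidneys and kidney 2 below all of them. The log2 means were -3.03 ± 0.33 and -1.68 ± 1.27 (SD, n = 4 each). The log2 difference of 1.35 ± 0.58 (SE), or 2.55-fold, had a limma adjusted p of 0.130. Leaving out obstructed kidney 2 gave 1.98 ± 0.21, or 3.94-fold, with a limma adjusted p of 0.000708.

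miR-146a, the best known feedback inhibitor among these miRNAs, had a smaller fitted difference than miR-146b and miR-155, although with normexp background correction miR-155 had the smallest and no test separated them. Contralateral kidneys 1 to 4 had scaled levels of 0.562, 0.712, 0.401 and 0.562. Obstructed kidneys 1 to 4 had 1.13, 0.498, 1.10 and 0.934. Kidney 2 lay within the contralateral range here, and the other 3 lay above it. The log2 means were -0.87 ± 0.34 and -0.20 ± 0.55 (SD, n = 4 each), a difference of 0.67 ± 0.30 (SE), or 1.59-fold, with a limma adjusted p of 0.149. With obstructed kidney 2 left out the difference was 0.94 ± 0.20, or 1.92-fold, with a limma adjusted p of 0.00807.

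**Figure D1:**
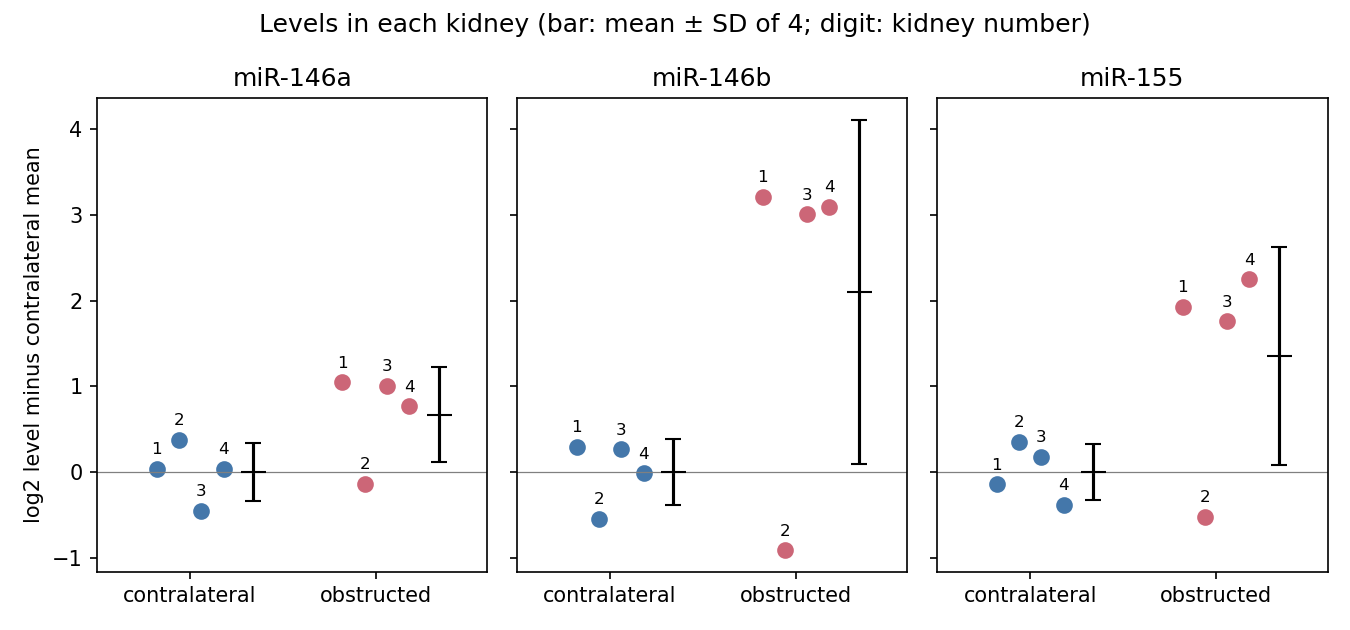
Log2 scaled level of miR-146a, miR-146b and miR-155 in each kidney, minus the mean of the 4 contralateral kidneys (vertical axis), with points numbered by kidney and bars for the mean ± SD of each group. Obstructed kidneys 1, 3 and 4 sit at 3.01 to 3.22 for miR-146b, 1.76 to 2.25 for miR-155 and 0.77 to 1.05 for miR-146a, while obstructed kidney 2 sits at -0.91, -0.52 and -0.14.

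Of the 3 tested members, 0 were called on all 8 arrays (limma, adjusted p under 0.05), and 2 had an unadjusted p under 0.05. In the whole comparison 14.9% of the 222 tested miRNAs were called, 1.35% higher and 13.5% lower in obstructed kidneys. All obstructed arrays lay above all contralateral arrays for 1.8% of the tested miRNAs and below them for 21.2%, and 0 of the 3 members were among either. Without obstructed kidney 2 all 3 members were called higher, against 20.7% of all tested miRNAs called higher, 30.2% called lower and 50.9% called either way. In that comparison 23.9% of the tested miRNAs, the 3 members among them, had all obstructed arrays above all contralateral ones, and 32.4% had them all below. The median log2 difference of all tested miRNAs was -0.14 with 8 arrays and -0.17 without obstructed kidney 2, so the members lay 0.81 (miR-146a), 1.49 (miR-155) and 2.24 (miR-146b) above that median with all arrays. Without scaling, the differences with all arrays were 1.55 (miR-146a), 2.98 (miR-146b) and 2.23 (miR-155), where the median of all tested miRNAs was 0.74. With normexp background correction, which added a constant of 50 to each spot, they were 0.34, 0.65 and 0.23 beside a median of -0.62. None was called that way with or without obstructed kidney 2. In a whole kidney, more cells of a type and more of the miRNA per cell cannot be told apart.

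**Figure D2:**
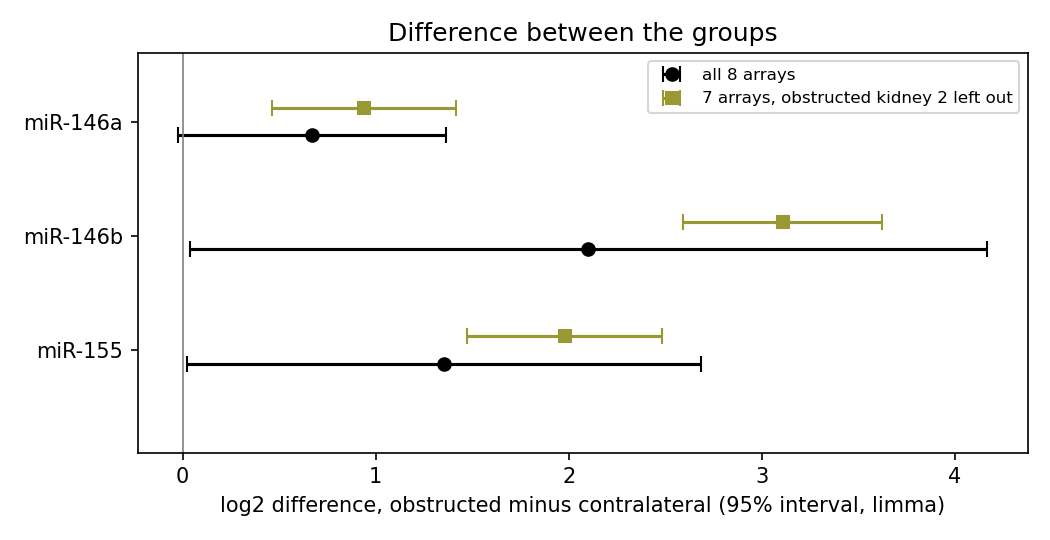
Log2 difference between obstructed and contralateral kidneys for the 3 tested members (horizontal axis) with 95% intervals from limma, from all 8 arrays (circles) and from the 7 arrays that remain without obstructed kidney 2 (squares). The interval for miR-146b runs from 0.038 to 4.17 with all arrays and from 2.59 to 3.62 without obstructed kidney 2.

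Separate probes of each member gave differences of the same sign. Each of the 3 detected members had 2 probes of 10 spots each. For miR-146a they gave log2 differences of 0.65 and 0.79. For miR-155 the brighter gave 1.42 with all arrays and 2.05 without obstructed kidney 2, and the dimmer 1.71 without that kidney. For miR-146b the brighter probe had a mean spot signal of 22.7 to 51.4 on the contralateral arrays and of 501, 21.4, 883 and 1058 in obstructed kidneys 1 to 4, before scaling. Its dimmer probe was above background on no contralateral array and on 3 of 4 obstructed arrays, at 55.9, 99.3 and 129 in kidneys 1, 3 and 4. In obstructed kidney 2 it read 2.36, not above background, as on the contralateral arrays. The brighter probe read below its contralateral range in that kidney, so neither probe showed there the high signal of kidneys 1, 3 and 4. Spots of a probe within an array varied by 3.03% to 26.3% (coefficient of variation) where the probe was above background. The scanner software's own error on the summed signal was 8.37% to 14.8%. Both describe the measurement within 1 array and not the spread between kidneys.

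The opposite strand of the miR-146b precursor, miR-146b*, stayed at background. None of the spots of its 4 probes was marked well above background on any array. The highest mean spot signals, 2.88 and 4.69, were those of 1 probe in obstructed kidneys 3 and 4, where the bright miR-146b probe read 883 and 1058. No fold is given, since both groups were below background.

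miR-147 also stayed at background. Its 4 probes of 5 spots each had mean signals between -2.66 and 1.87 over the 8 arrays, with 0 spots marked well above background. The highest value was in obstructed kidney 4, on a probe that read 0.27 in obstructed kidney 3 and 0.082 in obstructed kidney 1. With levels at the floor in both groups, miR-147 was not tested, and a difference was not detectable at this signal.

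**Figure D3:**
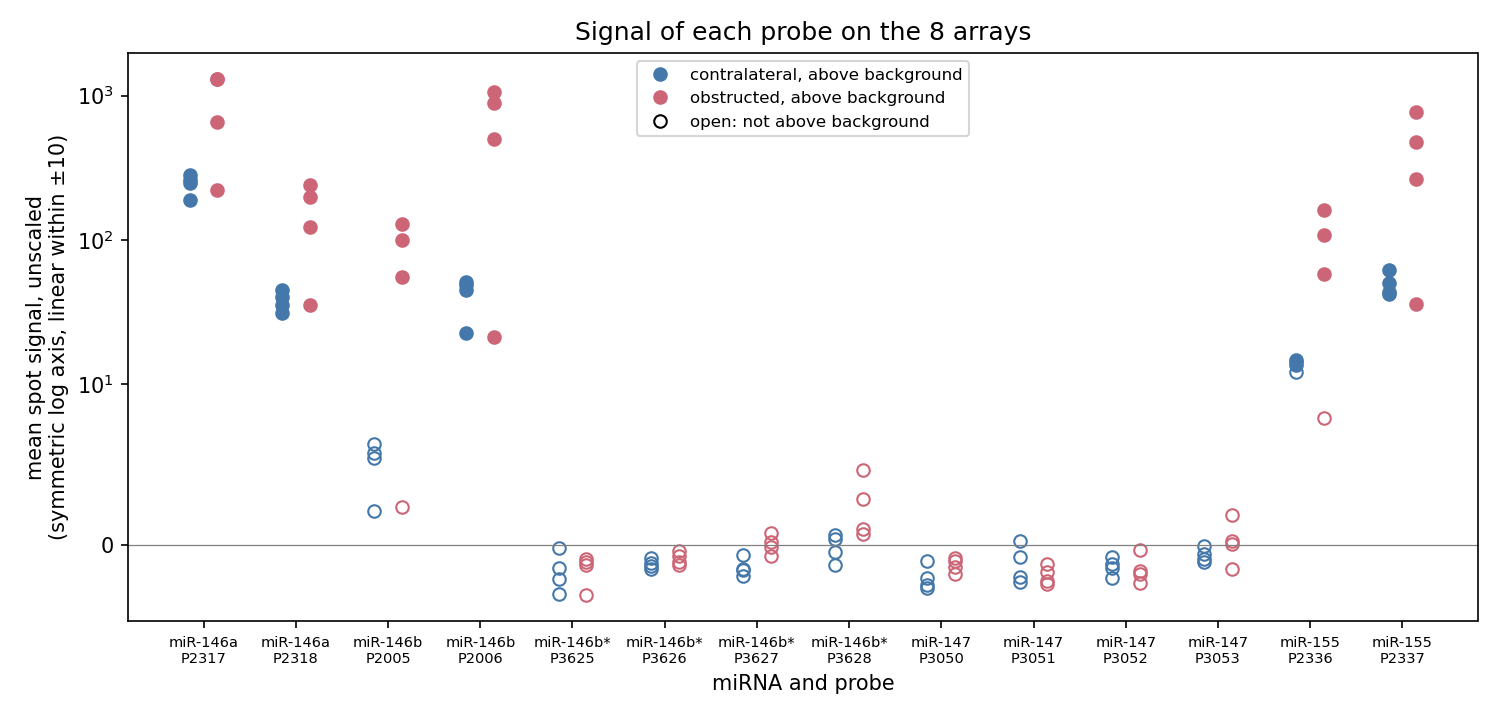
Mean spot signal before scaling for each probe of the 4 members and of miR-146b* (horizontal axis) on each array, on a symmetric log axis that is linear within ±10; filled points mark a probe above background on that array. miR-147 and miR-146b* stay between -3.14 and 4.69, while the brighter miR-146b probe spans 21.4 to 1058.

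Ratios between the 3 detected members were compared as well. A ratio of 2 miRNAs on the same array does not depend on the scaling. On the log2 scale the ratio of miR-146b to miR-146a lay 2.17, 2.00 and 2.33 above its contralateral mean in obstructed kidneys 1, 3 and 4 and at -0.77 in kidney 2. The contralateral kidneys themselves ranged from -0.92 to 0.71. The mean difference was 1.43 (SD 0.69 in contralateral and 1.48 in obstructed kidneys, n = 4 each), higher in 3 of 4 obstructed kidneys, with a two-sided exact permutation p of 0.114 and 0.240 after adjustment over 6 ratios. Without obstructed kidney 2 it was 2.17 (exact permutation p = 0.0286, adjusted 0.0571), and 3 against 4 kidneys allow no smaller p. The ratio of miR-155 to miR-146a differed by 0.68 (exact permutation p = 0.200, adjusted 0.240), and by 1.04 without obstructed kidney 2 (exact permutation p = 0.0571, adjusted 0.0686). The ratio of miR-155 to miR-146b differed by -0.75 (exact permutation p = 0.171, adjusted 0.240), and by -1.13 without that kidney (exact permutation p = 0.0286, adjusted 0.0571). None of the 6 ratios passed after adjustment, with or without obstructed kidney 2. The smallest exact p that either set of arrays allows is 0.0286, so 1 ratio alone could not pass the adjustment over 6. The lack of a pass is therefore no sign that the ratios were equal. The ratios were chosen after the values were seen.

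Leukocyte markers, miRNAs enriched in blood-derived immune cells, lay above their contralateral mean in the same obstructed kidneys 1, 3 and 4. Of the 6 listed, 3 were above background on all 4 arrays of a group and were tested. The log2 difference was 1.45 ± 0.50 for miR-223, a myeloid miRNA (SE, limma adjusted p = 0.0837). It was 1.31 ± 0.46 for the pan-leukocyte miR-142-3p and 1.46 ± 0.82 for miR-342-3p. Obstructed kidney 2 lay at -0.23 for miR-223, 0.24 for miR-142-3p and -1.17 for miR-342-3p relative to the contralateral mean. On all 8 arrays 0 of the 3 were called (limma, 2 at an unadjusted p under 0.05), and without obstructed kidney 2 all 3 rose, where 20.7% of all tested miRNAs were called higher. Their median was 1.45, against -0.14 for all tested miRNAs. miR-142-5p, miR-150 and miR-342-5p were above background in 3 obstructed kidneys each and in 0, 1 and 0 contralateral kidneys. The summed scaled level of the 6 markers ranged from 1.37 to 1.86 in contralateral kidneys and from 1.32 to 6.11 in obstructed kidneys. The part of immune cells in the members' differences was not tested.

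The members were also set against the mean log2 level of the 3 tested leukocyte markers on the same array, and none of these ratios passed the test. The same limit on the smallest exact p applies to them. miR-155 differed from them by -0.054 between the groups, with values of -0.22, -0.14, -0.29 and 0.43 in obstructed kidneys 1 to 4 and of -0.40 to 0.29 in contralateral kidneys (exact permutation p = 0.857, also after adjustment), and by -0.026 without obstructed kidney 2. miR-146b lay 1.07, 0.96 and 1.28 higher relative to the markers in obstructed kidneys 1, 3 and 4 and at -0.53 in kidney 2, a mean of 0.70 (exact permutation p = 0.171, adjusted 0.240), or 1.10 without kidney 2 (exact permutation p = 0.0286, adjusted 0.0571). miR-146a lay at -1.09, -1.05 and -1.05 in kidneys 1, 3 and 4 and at 0.25 in kidney 2, a mean of -0.74 (exact permutation p = 0.114, adjusted 0.240), or -1.06 without kidney 2 (exact permutation p = 0.0571, adjusted 0.0686).

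The array also held other miRNAs described as induced by Toll-like receptor or NF-kB signalling. Of the 10 listed, 8 were tested, 0 were called on all 8 arrays (limma, 0 at an unadjusted p under 0.05), and their median log2 difference was 0.28. Without obstructed kidney 2, 4 of the 8 rose and 0 fell, with a median of 0.42, where 20.7% of all tested miRNAs were called higher and 30.2% lower and their median was -0.17. These were miR-132, a CREB- and Toll-like receptor-responsive miRNA, at 2.54 ± 0.58 (SE, n = 3 and 4; limma adjusted p = 0.0107), miR-21, widely described in fibrosis, at 1.27 ± 0.25, and miR-99b and miR-125a-5p, which share a cluster with let-7e, at 0.67 ± 0.16 and 0.47 ± 0.15. With all 8 arrays miR-132 was at 1.72 ± 0.88 (limma adjusted p = 0.201). The other bright miRNAs of the list were miR-21 at 0.81 ± 0.46, let-7e at 0.26 ± 0.18, miR-125a-5p at 0.30 ± 0.21 and miR-99b at 0.37 ± 0.30. The remaining tested miRNAs of the list, named after their values were seen, were miR-9 at -0.10, miR-9* at -0.32 and miR-301a at 0.20, and at -0.15, -0.46 and 0.16 without obstructed kidney 2. Of the untested miRNAs, also named after their values were seen, miR-212 was above background in 3 obstructed and 0 contralateral kidneys, and miR-187 in none.

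Of the 3 miRNAs described as lowered by Toll-like receptor signalling, 0 were called on all 8 arrays (limma, 1 at an unadjusted p under 0.05), and their median was 0.14. miR-125b-5p was at 0.14 ± 0.22, let-7i at 0.84 ± 0.35 and miR-98 at -0.25 ± 0.14 (SE, n = 4 each). Without obstructed kidney 2, 2 of the 3 rose, let-7i by 1.22 ± 0.13 and miR-125b-5p by 0.36 ± 0.12, and 0 fell, against the same 20.7% called higher.

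**Figure D4:**
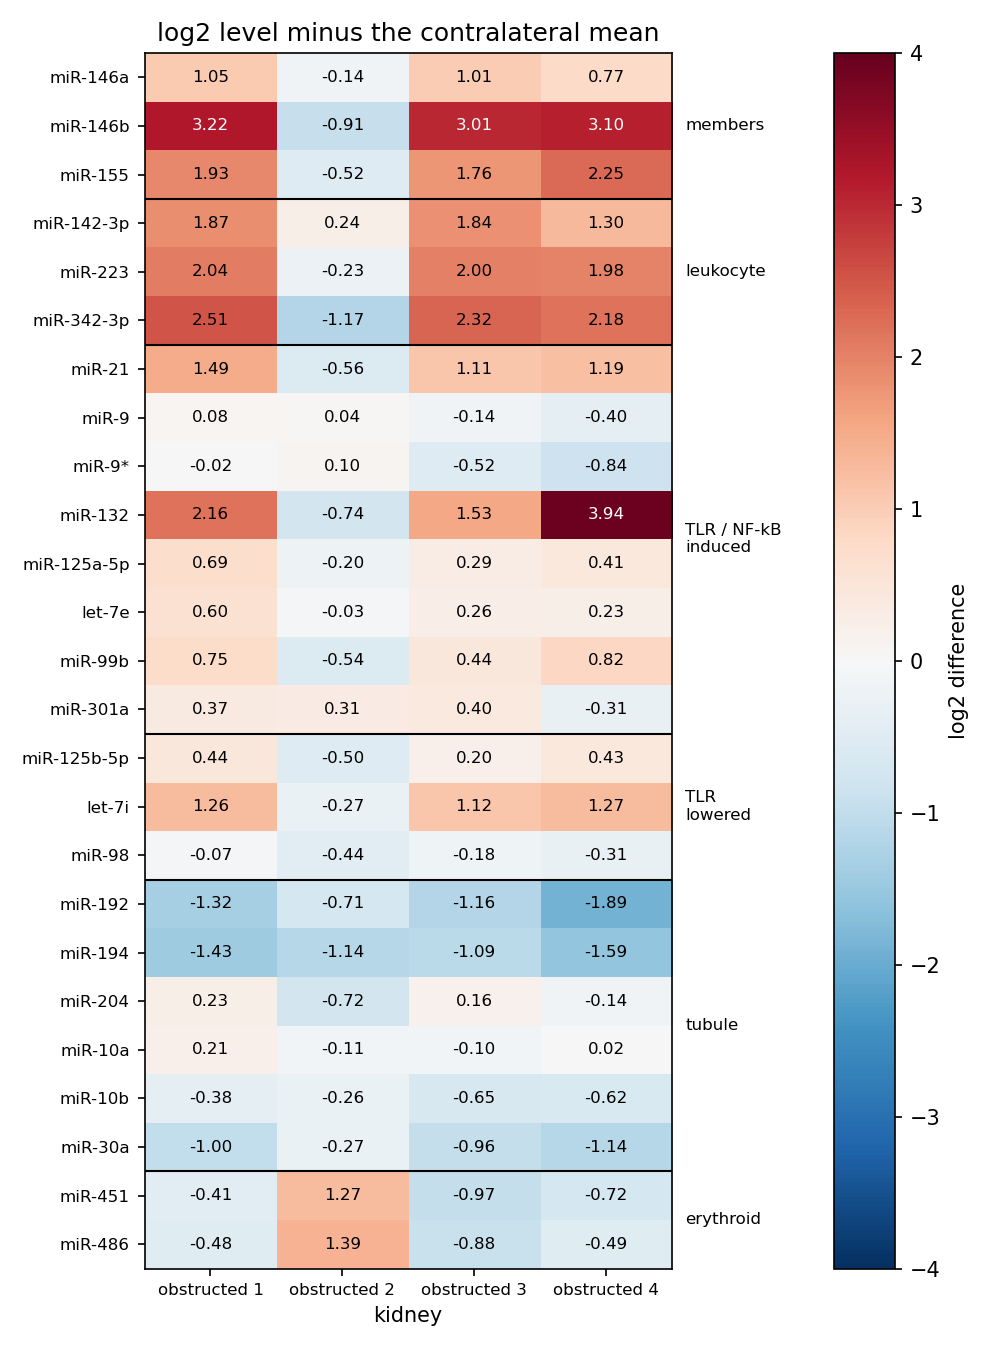
Log2 level minus the contralateral mean in each obstructed kidney (columns) for the 3 detected members and the tested miRNAs of 5 lists (rows), with the value printed in each cell and red for higher, blue for lower. In kidney 2 the members and most leukocyte and Toll-like receptor miRNAs lie near or below 0, and the tubule miRNAs miR-192 and miR-194 lie at -0.71 and -1.14. The erythroid miR-451 and miR-486 lie at 1.27 and 1.39 there, where the summed erythroid level of contralateral kidneys (not drawn) ranged from 5.17 to 44.6.

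Marker miRNAs of other cell types in obstructed kidney 2 are given beside its low member values. Of the tubule miRNAs called lower on all 8 arrays, miR-194 was at -1.14 relative to the contralateral mean in kidney 2 and at -1.59 to -1.09 in the other obstructed kidneys. miR-192 was at -0.71 against -1.89 to -1.16, and miR-30a at -0.27 against -1.14 to -0.96, so both lay nearer to the contralateral mean in kidney 2. The other 3 tested tubule miRNAs lay between -0.72 and -0.11 in kidney 2 and between -0.65 and 0.23 in the others. The erythroid miRNAs miR-451 and miR-486 were 1.27 and 1.39 above the contralateral mean in kidney 2 and between -0.97 and -0.41 in the other obstructed kidneys. Contralateral kidneys varied widely here: the summed scaled level of the 3 listed erythroid miRNAs ranged from 5.17 to 44.6 in them. It ranged from 5.16 to 24.4 in obstructed kidneys, so kidney 2 lay below the highest contralateral kidney. The endothelial miR-126-5p, called lower on all 8 arrays, was at -0.85 in kidney 2 and at -1.09 to -0.43 in the other obstructed kidneys. The endothelial miR-126-3p was at -0.51 against -0.38 to -0.046. The smooth muscle miR-143 was at -0.51 against 0.059 to 0.55, and the striated muscle miR-1 at -1.07 against -1.32 to -0.31. The part of any of these cell types in the members' values was not tested.

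The miRNAs whose pattern over the 8 arrays was most like that of a member were found by the root mean square difference between log2 levels, each centred on its contralateral mean. For miR-155 these were miR-223 (0.22), miR-214 (0.27) and miR-199a-5p (0.34), against a median of 1.37 over all tested miRNAs. For miR-146b they were miR-342-3p (0.53), miR-132 (0.75) and miR-223 (0.78), against a median of 2.05. For miR-146a they were miR-15b (0.27), miR-25 (0.29) and miR-148a (0.33), against a median of 0.82. All these miRNAs share the same 8 arrays and their scaling, and this is a description of likeness only.

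Within each slide row the members' mean differences kept their direction. From each group, kidneys 1 and 2 sat in slide row 1, and kidneys 3 and 4 in slide row 2. In slide row 2 the log2 differences were 1.09 for miR-146a, 2.93 for miR-146b and 2.11 for miR-155, with limma adjusted p-values of 0.0446, 0.0132 and 0.0349 from 2 against 2 arrays, where 31.1% of all tested miRNAs were called and 9.01% were called higher. In slide row 1, which held obstructed kidney 2, they were 0.25, 1.28 and 0.60, with limma adjusted p-values of 0.957, 0.925 and 0.946. There obstructed kidney 1 lay above the contralateral mean for each of these members and obstructed kidney 2 below it. The calls in slide row 2 are thus also calls without obstructed kidney 2.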

How the data were processed

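miRNA from 100 ng of total RNA was labelled with Cy3 and hybridised to 1-colour Agilent mouse miRNA arrays, 1 per kidney, per the labels. The authors deposited the intensity of each spot. The software was Agilent Feature Extraction (10.7.3.1 in the file headers, 10.1.1 in the submitters' processing notes). Per the file headers, local background was subtracted and spatial trends were removed, and arrays were not scaled to each other. The authors' series matrix held the same intensity values. The 8 arrays shared 1 slide and 1 scan.

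Outlier spots were left out and the rest averaged per probe (1759 mouse probes). Scaling was by the array's own 75th percentile, taken from the 371 probes above background on every array (over 50% of spots so marked). Probes of a miRNA were summed, floored at 0.0213 and put on the log2 scale, which understates the change of dim miRNAs. The 222 miRNAs above background on all 4 arrays of a group were compared with limma 3.58.1 in R 4.3.3, called at adjusted p under 0.05, and the fit was tested on simulated data. Named miRNAs are the members, their other strands, called or up to 4 brightest members of each list, and the 3 most alike miRNAs per member. Some further members of the lists are named too. The members and lists were chosen with earlier results of these data known. Labels do not say that kidneys came from separate mice, so p-values measure only the spread between these samples. The number of arrays limits the precision.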

Additional observations from a re-analysis of the deposited data

Results flagged for a closer look

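The level of miR-146b in obstructed kidney 2 was far from that in the other 3 obstructed kidneys. The gap to the nearest of them was 0.95 of the range of the group, above Dixon's 95% critical value for 4 samples. Its log2 level was -4.44, against a range of -0.51 to -0.31 in the other obstructed kidneys. Chance passes this value in about 1 in 20 groups, and 6 groups were examined. For miR-155 the same array gave 0.823 and for miR-146a 0.765, both under the critical value.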

How the results depend on the processing

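miR-146a, miR-146b and miR-155 kept a difference above 0, and above the median of all tested miRNAs, under all 29 alternatives, with log2 differences of 0.25 to 2.11, 0.65 to 4.31 and 0.23 to 3.15 and limma adjusted p-values up to 0.957. Each was called under 8 of them, all of which left out obstructed kidney 2, did not hold it, or gave it a low weight (0.114). No setting that held that kidney without down-weighting it called any of the members. Leaving out each array in turn gave 0.52 to 0.94, 1.73 to 3.11 and 1.05 to 1.98, called only without obstructed kidney 2. For miR-146a, miR-146b and miR-155 in that order, the calls came with array weights (0.95, 2.96, 2.00), within slide row 2 (1.09, 2.93, 2.11), and without obstructed kidney 2 under scaling over all mouse probes (1.00, 3.17, 2.04), quantile normalization (0.98, 3.07, 2.06), no scaling (2.11, 4.28, 3.15), the summed gene signal (0.84, 3.16, 1.87) and the unscaled series matrix (2.11, 4.31, 3.13). With normexp background correction and all arrays the differences were 0.34, 0.65 and 0.23. With normexp and without obstructed kidney 2 they were 0.53, 1.08 and 0.48, with no call (limma adjusted p = 0.178, 0.125 and 0.397). Normexp added a constant of 50 to each spot, beside contralateral signals of 22.7 to 51.4 for the brighter miR-146b probe. The part of that constant in the smaller differences was not tested.

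The count of called miRNAs, 33, was 0 to 113 when each array was left out: 113 without obstructed kidney 2, 20 without contralateral kidney 2, 14 without obstructed kidney 4, and 0 without any other (54 to 67 at an unadjusted limma p under 0.05). It was 0 with scaling over all mouse probes, with normexp, with the replicate block and within slide row 1 (limma, 56, 54, 67 and 1 at an unadjusted p under 0.05), 3 with quantile normalization, without scaling and with the series matrix, 17 with no filter, 138 with array weights and 69 within slide row 2. Without obstructed kidney 2 it was 72 with all mouse probes, 100 with quantile normalization, 115 without scaling, 115 with the summed gene signal and 113 with the series matrix. The split without scaling and without that array was 113 higher and 2 lower, where the median of all tested miRNAs moved to 1.01.

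With the replicate block the members' differences stayed at 0.67, 2.10 and 1.35 (limma adjusted p = 0.237, 0.103 and 0.210). The numbers were not taken to pair the kidneys, since the labels state no pairing. Deviations of same-numbered kidneys correlated in some pairs only (-0.35, 0.22, 0.62 and 0.015 for kidneys 1 to 4), and 2 of 4 contralateral kidneys correlated best with their own number. Obstructed kidney 2 was the best match of contralateral kidneys 1, 2 and 4, so these correlations cannot tell whether same-numbered kidneys came from 1 mouse. With the slide row as a block adjusted p was 0.175, 0.136 and 0.148. The difference of miR-155 from the leukocyte markers ranged from -0.22 to 0.043 when each array was left out, with its sign turned without contralateral kidney 2, obstructed kidney 1 or obstructed kidney 3.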

Other observations

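Low values in obstructed kidney 2 were also seen for other miRNAs. Of the 222 tested miRNAs, 27 had a mean log2 level over 1 above the contralateral mean in obstructed kidneys 1, 3 and 4. For 21 of the 27 obstructed kidney 2 was at or below the highest contralateral kidney. The 27 include miR-146b and miR-155 and were picked for high values in the other kidneys, a choice that favours a lower value in kidney 2. The same count was not made for another kidney. Over all 222 tested miRNAs, obstructed kidney 2 lay within the contralateral range for 70 and outside it for the rest. For 21.2% of the tested miRNAs every obstructed array, that of kidney 2 included, lay below all contralateral arrays, and for 1.8% above them.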
